A study of Mus musculus with 28 samples.

Results

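Reads that mouse sperm small RNA libraries carry from ribosomal RNA, from the small nuclear RNAs of the spliceosome and from their small structural companions are described here. They were taken as all features of the structural RNA class except tRNAs and Y RNAs, by name, which gave 18 names among 47562 feature names in the series. The names were U1, U2, U4, U5, U6 and U7 (small nuclear RNAs), U3, U8, U13, U14 and U17 (nucleolar RNAs, which the files also class as small nuclear RNA), 5S, LSU-rRNA_Hsa and SSU-rRNA_Hsa (ribosomal RNA), 7SLRNA, 4.5SRNA and BC1_Mm, and U13_, which had 1 count in 1 library. The WT table listed 2958 annotated copies of them with 792205 counts, the Nrf2-/- table listed 1944 copies with 455056 counts, and the liver KO table listed 1595 copies with 337929 counts. Ribosomal RNA made up a small share of these reads, so the set holds more than its name says. The 3 names with the most counts were 7SLRNA, U4 and U1 in the WT table, 7SLRNA, U1 and 4.5SRNA in the Nrf2-/- table, and 7SLRNA, 4.5SRNA and U1 in the liver KO table.

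The 28 libraries came from sperm RNA, isolated by Trizol, and were built using Qiaseq small RNA chemistry. Wild type (WT) mice gave 4 control libraries with no alcohol, 4 low-dose, 2 medium-dose and 2 high-dose alcohol libraries. Nrf2-/- mice gave 4 ethanol libraries against 4 control libraries with no alcohol, and both of these groups lack Nrf2, the transcription factor encoded by Nfe2l2 that switches on antioxidant genes. The last set held 4 libraries from Nrf2 liver KO mice, which carry a floxed Nrf2 gene and an Albumin-Cre transgene, against 4 from floxed mice (Nrf2 flox). Albumin-Cre acts in hepatocytes, and the germ line of these mice should keep the gene. The labels state no ages, strains or amounts of alcohol, and do not say whether replicates are separate animals, so p-values measure the spread between these libraries only.

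Small nuclear RNAs sit in protein complexes that remove introns: U1 pairs with the 5′ splice site, U2 with the branch point, and U4, U5 and U6 join as one particle in which U4 holds U6 inactive until splicing begins. U7 works apart from them, in cutting the 3′ ends of histone messages. Nucleolar RNAs act on the ribosomal RNA precursor: U3, U14 and U17 in the steps that release the small-subunit RNA, U8 in maturation of the large-subunit RNAs in vertebrates, and U13 in modification of the small-subunit RNA. 7SL RNA is the scaffold of the signal recognition particle, 4.5S RNA and BC1 are rodent RNAs made by RNA polymerase III, and BC1 is best known from the cytoplasm of neurons. Mature sperm make little new RNA, and their nuclei are packed with protamines.

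The reference RNAs behind the names discussed most are shown first, read from GENCODE vM21 on the GRCm38 mouse build, on the strand of the RNA and with T for U. No source used here names the build of the deposited tables, and which annotated copy in the tables corresponds to which gene was not established, so these sequences show the RNA species and not the sequenced fragments. Box C/D nucleolar RNAs come first, U3, U8 and U14. On the main scale used below, each was higher in every Nrf2-/- ethanol library than in any Nrf2-/- control, as was U13, which is not shown. The same held for 2.96% of all features, and relative to all counts only U8 of these names stayed apart. Capitals mark the box C (TGATGA) and the box D (CTGA), the paired motifs by which this family binds its core proteins.
U3, Rnu3a: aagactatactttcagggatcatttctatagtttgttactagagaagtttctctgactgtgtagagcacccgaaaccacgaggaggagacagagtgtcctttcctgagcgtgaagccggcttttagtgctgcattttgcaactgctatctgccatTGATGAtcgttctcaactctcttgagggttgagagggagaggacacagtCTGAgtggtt
U8, Snord118: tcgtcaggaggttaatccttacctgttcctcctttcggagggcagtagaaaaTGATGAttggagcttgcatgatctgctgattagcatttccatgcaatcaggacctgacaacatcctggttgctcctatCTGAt
U14, Snord14e: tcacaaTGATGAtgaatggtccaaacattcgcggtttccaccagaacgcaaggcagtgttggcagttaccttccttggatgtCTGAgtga
Rnu3a lies at chr10:40258467-40258680 on the plus strand, and Snord118 has 135 bases at chr11:69073427-69073561 on the plus strand. Snord14e has 90 bases at chr9:40804748-40804837 on the plus strand, inside Hspa8, where it overlaps an annotated Hspa8 exon. In all 3 the box D lies within 6 bases of the 3′ end. Box C followed by box D, searched on the RNA strand, was present in 362 of 1507 annotated snoRNA transcripts (24.0%).

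U17 is a nucleolar RNA of the other large family, box H/ACA, and U1 and U7 are shown because their values were lowest at the medium dose of alcohol. In U17 the capitals mark the ACA box. In U1 they mark ACTTACCTG, the stretch that pairs with the 5′ splice site, and in U7 they mark AATTTGTCT, the start of the binding site of its ring of Sm and Sm-like proteins.
U17, Snora73a: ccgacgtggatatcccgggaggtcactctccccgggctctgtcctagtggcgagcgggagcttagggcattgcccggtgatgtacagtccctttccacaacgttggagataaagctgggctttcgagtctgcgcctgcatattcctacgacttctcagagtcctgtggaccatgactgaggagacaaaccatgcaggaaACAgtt
U1, Rnu1b1: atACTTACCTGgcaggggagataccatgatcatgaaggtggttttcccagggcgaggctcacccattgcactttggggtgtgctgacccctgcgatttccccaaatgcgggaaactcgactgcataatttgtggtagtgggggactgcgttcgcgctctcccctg
U7, Rnu7, bases 2 to 31: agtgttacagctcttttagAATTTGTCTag
Snora73a has 205 bases at chr4:132352775-132352979 on the minus strand, within the Rcc1 gene and an exon of Snhg3, and its ACA ends 3 bases before the 3′ end. Rnu1b1 has 165 bases at chr3:96359953-96360117 on the minus strand. Rnu7 has 62 bases at chr6:124741225-124741286 on the minus strand, where it overlaps Grcc10, and the stretch shown lies at chr6:124741256-124741285. An ACA in the last 6 bases was found in 690 of 1507 snoRNA transcripts (45.8%), ACTTACCTG in 55 of 1383 annotated snRNA transcripts (3.98%) and AATTTGTCT in 3 of 1383 (0.217%), each on the RNA strand.

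Libraries of the WT table held 1993933 to 11119711 counts, those of the Nrf2-/- table held 3922109 to 6448390, and those of the liver KO table held 2567463 to 4394714. All 18 sperm and spermatid marker genes, Prm1, Prm2, Odf1 and Smcp among them, had exon counts in each table. WT control 1 stood apart, with tRNA at 75.2% of its counts against 21.5% to 31.0% in the other WT libraries, and results that rest on it are given with and without it. High-dose library 1 had the highest epididymis markers of the WT libraries, 15 of 16 of which were detected in that table, with Lcn9 at 0. Nrf2-/- controls 1 and 2 also stood apart from controls 3 and 4, as described with that comparison. Nfe2l2 exon counts were 1 to 10 in Nrf2-/- ethanol libraries, 0 to 20 in Nrf2-/- control libraries, 0 to 22 in Nrf2 liver KO libraries and 9 to 20 in Nrf2 flox libraries, too few in a small RNA library to check the genotypes.

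The 18 names together took about 1 in 100 counts in every group. Their share of all counts was 0.985% ± 0.318 in WT control libraries (SD, n = 4), 0.907% ± 0.122 at the low dose (n = 4), 0.896% ± 0.0784 at the medium dose (n = 2) and 1.01% ± 0.0286 at the high dose (n = 2). It was 1.04% ± 0.133 in Nrf2-/- ethanol and 1.23% ± 0.275 in Nrf2-/- control libraries (n = 4 each), and 1.09% ± 0.170 in Nrf2 liver KO and 1.29% ± 0.237 in Nrf2 flox libraries (n = 4 each). The mean of every treated or KO group lay within 1 SD, taken over its control or flox libraries, of their mean. Of the structural counts that are not tRNA, they were 82.6% to 98.9% over all libraries, the rest being Y RNA.

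Small nuclear RNAs, with the nucleolar RNAs that the files class among them, were the largest kind of these reads in all libraries but Nrf2-/- control 4 and liver KO library 1, where 7SLRNA was larger. Of the counts of the 18 names, the spliceosomal RNAs (U1, U2, U4, U5 and U6) held 44.1% to 62.1% in single WT libraries, 32.7% to 43.0% in Nrf2-/- libraries and 30.7% to 42.1% in the liver KO table. 7SLRNA held 21.1% to 32.0%, 14.3% to 48.2% and 18.6% to 42.9% of them in the same order. The 3 ribosomal names together held 1.83% to 7.61%, 2.60% to 5.96% and 2.25% to 4.64%. Nearly all of that was LSU-rRNA_Hsa, the large-subunit RNA under the name of a human consensus: SSU-rRNA_Hsa reached at most 1.38 counts per 100 of LSU-rRNA_Hsa in any library. These are shares of reads and are not divided by RNA length, so they do not rank the RNAs by number of molecules.

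**Figure D1:**
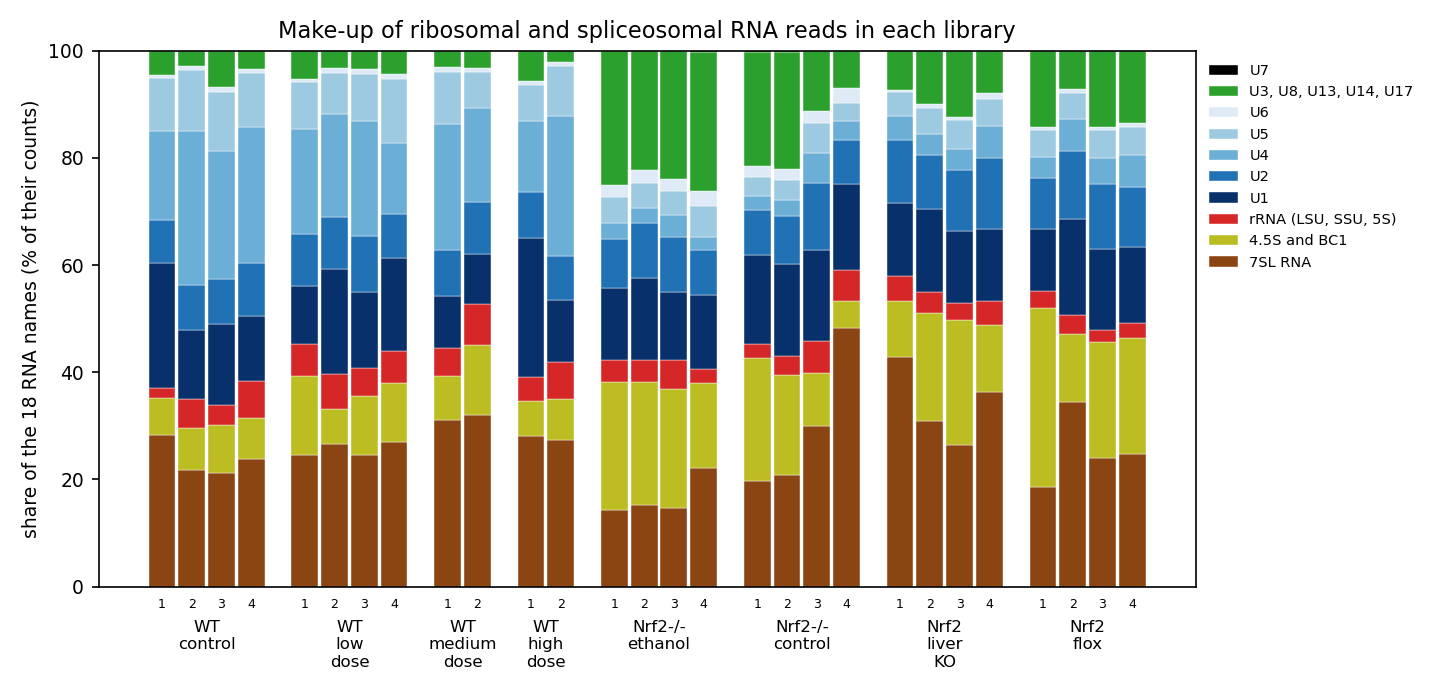
Share of the counts of the 18 names, in percent, as stacked bars with 1 bar for each of the 28 libraries by group and replicate, with U3, U8, U13, U14 and U17 drawn as a single block and likewise the ribosomal names and 4.5SRNA with BC1_Mm. The U4 block is wide in the WT bars, the nucleolar block is widest in the Nrf2-/- ethanol bars, and the 7SLRNA block is widest in Nrf2-/- control 4 (48.2%) and liver KO library 1 (42.9%).

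The tables differed in which of these RNAs were prominent. U4 held 20.5% of the counts of the 18 names in WT libraries, 3.41% in Nrf2-/- libraries and 4.95% in the liver KO table. U3 ran the other way, with 1.06%, 9.93% and 5.36%. Nucleolar RNAs (U3, U8, U13, U14 and U17) had 3.70 to 11.5 counts per 100 spliceosomal counts in single WT libraries, 20.6 to 78.7 in Nrf2-/- libraries and 17.01 to 45.8 in the liver KO table. No library of the WT table reached the lowest of the other tables on that ratio. U4 had 50.9 to 244 counts per 100 of U1 in WT libraries, 15.7 to 32.6 in Nrf2-/- libraries and 24.7 to 44.6 in the liver KO table. WT, Nrf2-/- and floxed mice are each in a table of their own, so these differences cannot be told apart from those of the table, and no test between tables was made.

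The names differed in how many annotated copies carried their counts. U8, U13 and U7 came almost from single copies: 1 copy held 99.0%, 99.6% and 98.3% of U8 counts in the WT, Nrf2-/- and liver KO tables, 97.6%, 99.6% and 98.6% of U13 counts, and 85.7%, 98.1% and 94.1% of U7 counts. LSU-rRNA_Hsa had 1 copy with 91.8%, 91.7% and 81.1%. U14 and U4 each had a leading copy with 46.4% to 49.9%. U1 and 4.5SRNA were spread out, with at most 5.14% and 2.61% on any copy. The leading copy was the same in all tables that held the name for 12 of the 18 names. No source used here says how reads that match several copies were counted, so values are given per name only.

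No name passed the test in any of the 7 comparisons made. Counts were tested with edgeR's quasi-likelihood test over all features other than miRNAs, with Benjamini-Hochberg adjustment at 0.05, and levels are given as counts per 1000000 of those features after TMM scaling (CPM). The log2 changes below carry their standard errors and 95% intervals, and the unadjusted p-values are given to describe the names and not as calls. In bulk sperm RNA, fewer cells of a type and less RNA per cell cannot be told apart.

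In WT sperm, levels of these RNAs at the 3 doses of alcohol mostly overlapped those of controls. A change over all doses is the mean of the changes at the 3 doses, each with equal weight whatever its number of libraries. The column of medium-dose library 1 is named in the table like those of the high-dose libraries, and the sample labels were followed. At the low dose 0 of 17 tested names were called, against 11 of 17937 features (0.0613%), and 0 were called at the medium dose, the high dose or over all doses, where 0 of 17937 features (0%) were called in each. DESeq2 also called 0 of the names, against 21 features (0.117%) at the low dose, 0 (0%) at the medium and high doses and 1 (0.00558%) over all doses. At an unadjusted p under 0.05 there were 3 names at the low dose (7.46% of all features), 2 at the medium dose (4.74%), 0 at the high dose (2.91%) and 3 over all doses (4.24%). Groups did not overlap for 1 name at the low dose, where it was lower (1.94% of all features were lower and 3.3% higher without overlap), and for 2 at the medium dose, both lower (6.84% and 6.33%). There were 0 such names at the high dose (2.98% of all features lower, 4.61% higher; relative to all counts 5S was higher without overlap, as were 9.12%) and over all doses (0.106% lower, 0.424% higher). Of the 17 names, 6 were higher and 11 lower at the low dose, 5 and 12 at the medium dose, and 4 and 13 at the high dose. Scaling by the total of all counts moved the median of all features by 0.17, 0.0629 and 0.354 on the log2 scale at these doses, and the split became 9 and 8, 6 and 11, and 10 and 7.

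Among the spliceosomal RNAs, U4 was the name whose groups separated at the low dose. U4 had 2304, 3834, 2765 and 2602 CPM in controls, 1951, 1821, 2243 and 1462 CPM at the low dose, 2623 and 1870 CPM at the medium dose, and 1188 and 3076 CPM at the high dose. All 4 low-dose libraries lay below all 4 controls, as did 1.94% of all features, while at the other doses the groups overlapped. The log2 change at the low dose was -0.62 (SE 0.27, 95% interval -1.19 to -0.05, unadjusted p = 0.0331, adjusted p = 0.609 by edgeR's quasi-likelihood test). Relative to all counts the U4 groups overlapped at the low dose too.

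U1 was lowest at the medium dose. U1 had 3218, 1737, 1741 and 1244 CPM in controls, 1070, 1859, 1486 and 1917 CPM at the low dose, 1075 and 1011 CPM at the medium dose, and 2335 and 1360 CPM at the high dose. Both medium-dose libraries lay below every control, as did 6.84% of all features, and the log2 change was -0.93 (SE 0.36, 95% interval -1.68 to -0.18, unadjusted p = 0.0173, adjusted p = 0.943 by edgeR's quasi-likelihood test). Without WT control 1, the highest control, it was -0.59.

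U5, U2 and U6 overlapped controls at every dose. U5 had 1370, 1527, 1282 and 1027 CPM in controls, 874, 727, 928 and 1304 CPM at the low dose, 1087 and 713 CPM at the medium dose, and 605 and 1103 CPM at the high dose. Its log2 change over all doses was -0.53 (SE 0.22, 95% interval -0.98 to -0.08, unadjusted p = 0.0238). U2 had 1120, 1118, 965 and 998 CPM in controls, 961, 923.5, 1087 and 901 CPM at the low dose, 969 and 1026 CPM at the medium dose, and 776 and 980 CPM at the high dose. Its interval over all doses ran from -0.50 to 0.20 on the log2 scale. U6 had 85.8, 96.3, 90.9 and 76.7 CPM in controls, 60.5, 91.7, 82.8 and 107 CPM at the low dose, 94.2 and 84.7 CPM at the medium dose, and 70.7 and 86.4 CPM at the high dose. Its interval ran from -0.44 to 0.34.

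U7, the histone processing RNA, had the largest log2 change of the 17 names at the medium dose, on very few reads. It had 24, 18, 11 and 14 counts in controls, 13, 32, 18 and 18 at the low dose, 4 and 2 at the medium dose, and 28 and 14 at the high dose. In CPM these were 5.25, 3.02, 4.95 and 2.08 in controls, 2.01, 4.21, 2.62 and 3.14 at the low dose, 0.648 and 0.357 at the medium dose, and 2.81 and 2.56 at the high dose. The medium-dose libraries lay below all others, and the log2 change was -2.79 (SE 0.57, 95% interval -3.99 to -1.60, unadjusted p = 9.08e-05, adjusted p = 0.943 by edgeR's quasi-likelihood test). U1 and U7 also stayed below every control at the medium dose relative to all counts, as did 2.25% of all features. Low and high doses both overlapped controls, with U7 log2 changes of -0.27 and -0.43. Over all doses, with equal weight per dose, the U7 change was -1.16 (SE 0.34, unadjusted p = 0.00241, adjusted p = 0.965 by edgeR's quasi-likelihood test). Most of that came from the medium-dose libraries with 4 and 2 counts. With no filter on low counts U7 passed the adjusted test at the medium dose (log2 change -2.76), as did 0.119% of 45379 features by edgeR's quasi-likelihood test.

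**Figure D2:**
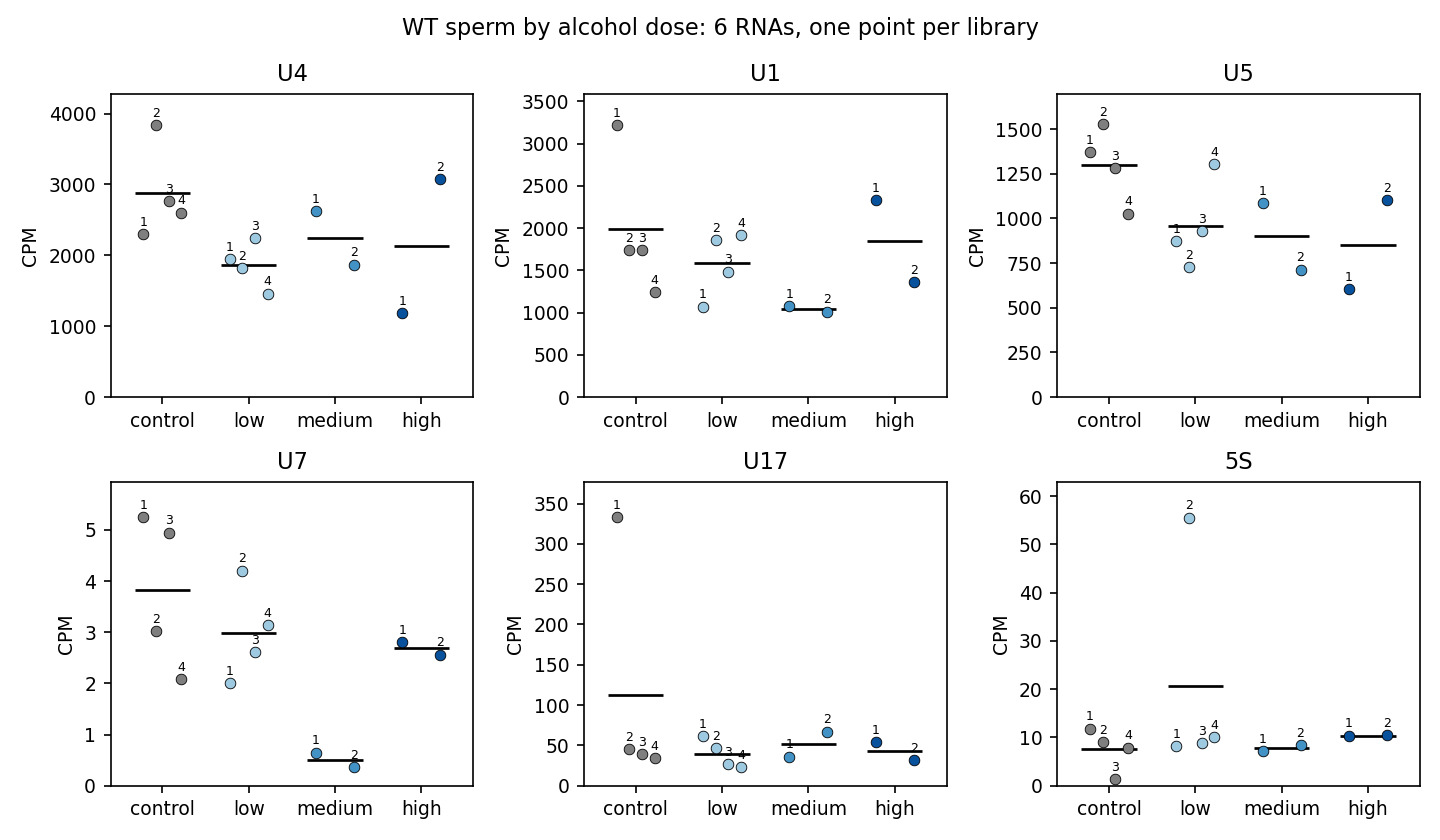
Levels of U4, U1, U5, U7, U17 and 5S in CPM in the 12 WT libraries, by dose, with each library as a point numbered by replicate and the group mean as a bar. U7 has its 2 lowest values at the medium dose, U17 has 1 high control and 5S has 1 high low-dose library.

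Among the nucleolar RNAs, the U17 difference rested on 1 control. U17 had 333, 45.5, 39.1 and 34.1 CPM in controls, 61.6, 46.5, 26.3 and 23.4 CPM at the low dose, 35.9 and 67 CPM at the medium dose, and 54 and 31.3 CPM at the high dose. WT control 1, the library with 75.2% tRNA, stood far above all others. The log2 change was -1.52 at the low dose (SE 0.56, unadjusted p = 0.0131, adjusted p = 0.449 by edgeR's quasi-likelihood test) and -1.35 over all doses (SE 0.47), and without WT control 1 it was 0.39 at the medium dose, 0.15 at the high dose and 0.18 over all doses, with the low dose close to 0. With no filter on low counts U17 passed the adjusted test at the low dose (0.342% of all features) and over all doses (0.119%) by edgeR's quasi-likelihood test.

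The box C/D RNAs overlapped at all doses. U3 had 163, 117, 134.5 and 90.9 CPM in controls, 96.6, 115, 110.3 and 114 CPM at the low dose, 115 and 104 CPM at the medium dose, and 144 and 78.9 CPM at the high dose. U8 had 27.1, 52.5, 124 and 61.6 CPM in controls, 95.7, 54.7, 51.7 and 57.5 CPM at the low dose, 38.9 and 39.9 CPM at the medium dose, and 67.1 and 39.6 CPM at the high dose. U14 had 88.6, 171, 475 and 163.5 CPM in controls, 251, 74.9, 168 and 272 CPM at the low dose, 145 and 133 CPM at the medium dose, and 228 and 92.3 CPM at the high dose. U8 and U14 were both lowest in control 1 and highest in control 3, so controls spanned nearly the whole range of the doses. U13 was sparse, between 0.219 and 12.9 CPM over the 12 libraries. Over all doses the log2 intervals ran from -0.62 to 0.23 for U3, from -0.97 to 0.27 for U8 and from -1.23 to 0.31 for U14. With all libraries the changes of U8 and U14 over all doses were -0.35 and -0.46. Without WT control 3 they were 0.12 and 0.20, and without WT control 1 they were -0.60 and -0.72.

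Of the ribosomal RNAs, LSU-rRNA_Hsa had 241, 715, 437 and 703.5 CPM in controls, 583, 564, 551 and 660.1 CPM at the low dose, 580.3 and 804 CPM at the medium dose, and 385 and 799 CPM at the high dose. Every dose overlapped controls, and the log2 interval over all doses ran from -0.30 to 0.79. 5S, the small RNA of the large subunit, had 11.8, 9.06, 1.35 and 7.86 CPM in controls, 8.18, 55.6, 8.86 and 10.1 CPM at the low dose, 7.12 and 8.40 CPM at the medium dose, and 10.3 and 10.4 CPM at the high dose. Its log2 change at the low dose was 1.39 (SE 0.52, 95% interval 0.30 to 2.48, unadjusted p = 0.0147, adjusted p = 0.461 by edgeR's quasi-likelihood test). That rested on low-dose library 2, with 423 counts against 53 to 61 in the other low-dose libraries, and without it the change was 0.17. With no filter on low counts 5S passed the adjusted test at the low dose, at a log2 change of 1.41. SSU-rRNA_Hsa lay between 0.394 and 3.09 CPM.

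7SLRNA, the most abundant name, had 3928, 2915, 2441 and 2441 CPM in controls, 2441, 2524, 2565 and 2972 CPM at the low dose, 3465 and 3414 CPM at the medium dose, and 2532 and 3233 CPM at the high dose. Its log2 change over all doses was 0.02 (SE 0.19, 95% interval -0.38 to 0.41). 4.5SRNA had 823, 917.5, 960.3 and 682 CPM in controls, 1325, 502.5, 999 and 1086 CPM at the low dose, 804.5 and 1250 CPM at the medium dose, and 501 and 787 CPM at the high dose. BC1_Mm had 135, 122, 80.1 and 94.7 CPM in controls, 132, 107, 154 and 130.4 CPM at the low dose, 115 and 146 CPM at the medium dose, and 92.3 and 103.5 CPM at the high dose. These 3 RNA polymerase III transcripts overlapped controls at every dose. Red blood cell markers moved with the low dose, summing to 34.9 to 63.8 exon CPM of all counts against 1.89 to 13.5 in controls, with all 7 markers detected in the WT table, and their part in these values was not tested.

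In Nrf2-/- sperm, the nucleolar RNAs were higher in ethanol libraries than in controls, all 5 in the same direction, though none passed the adjusted test. Without controls 3 and 4 all 16 tested names were higher, as given below, so that direction was not particular to the nucleolar RNAs. Of the 16 tested names 0 were called, against 0 of 9658 features (0%), and DESeq2 called 0 names and 3 features (0.0311%). Unadjusted p was under 0.05 for 2 names, U8 and U13, against 4.83% of all features. The 16 names split into 10 higher and 6 lower, with a median log2 change of 0.42 against -0.27 over all features. With the total of all counts as library size the median of all features moved by a further -0.27, and 9 names were higher and 7 lower. Groups did not overlap for 5 names, U8, U13, U3, U14 and 4.5SRNA, all higher with ethanol, as for 2.96% of all features, and 0 were lower without overlap (2.45%).

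U8 had 814, 669, 807 and 406 CPM in ethanol libraries, against 259, 352, 263 and 194 CPM in controls. Each ethanol library exceeded every control, and the log2 change was 1.33 (SE 0.45, 95% interval 0.36 to 2.31, unadjusted p = 0.0111, adjusted p = 0.767 by edgeR's quasi-likelihood test). U8 was the only tested name whose groups stayed apart relative to all counts, at 419.5, 316.5, 346 and 285 counts per 1000000 in ethanol libraries against 219.7, 282.5, 146 and 87.8 in controls, as did 0.59% of all features. On that scale its log2 change was 0.89. Leaving out any one library gave 1.25 to 1.53.

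The other box C/D RNAs followed. U13 had 73.1, 103, 79.0 and 122 CPM in ethanol libraries, against 48.5, 48.6, 62.4 and 28.1 CPM in controls, with a log2 change of 1.01 (SE 0.44, 95% interval 0.04 to 1.97, unadjusted p = 0.0420, adjusted p = 0.767 by edgeR's quasi-likelihood test). U3 had 2635, 2710, 2287 and 2616 CPM in ethanol libraries, against 1190, 1218, 1693 and 1676 CPM in controls. The 4 ethanol values lay close together and well above the controls, with a log2 change of 0.83 (SE 0.41, 95% interval -0.06 to 1.72). U14 had 1008, 974, 1142 and 915 CPM in ethanol libraries, against 885, 788.5, 634 and 140.5 CPM in controls. Control 4 was far below the others, and the log2 change was 0.72 (SE 0.55, 95% interval -0.47 to 1.91), or 0.43 without it. U17, the H/ACA member, had 281, 494, 699.5 and 464 CPM in ethanol libraries, against 188, 243, 355 and 182 CPM in controls, with overlap and a log2 change of 1.00 (SE 0.47, 95% interval -0.01 to 2.02). With the total of all counts as library size the log2 changes of U13, U3, U14 and U17 were 0.69, 0.57, 0.23 and 0.66.

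**Figure D3:**
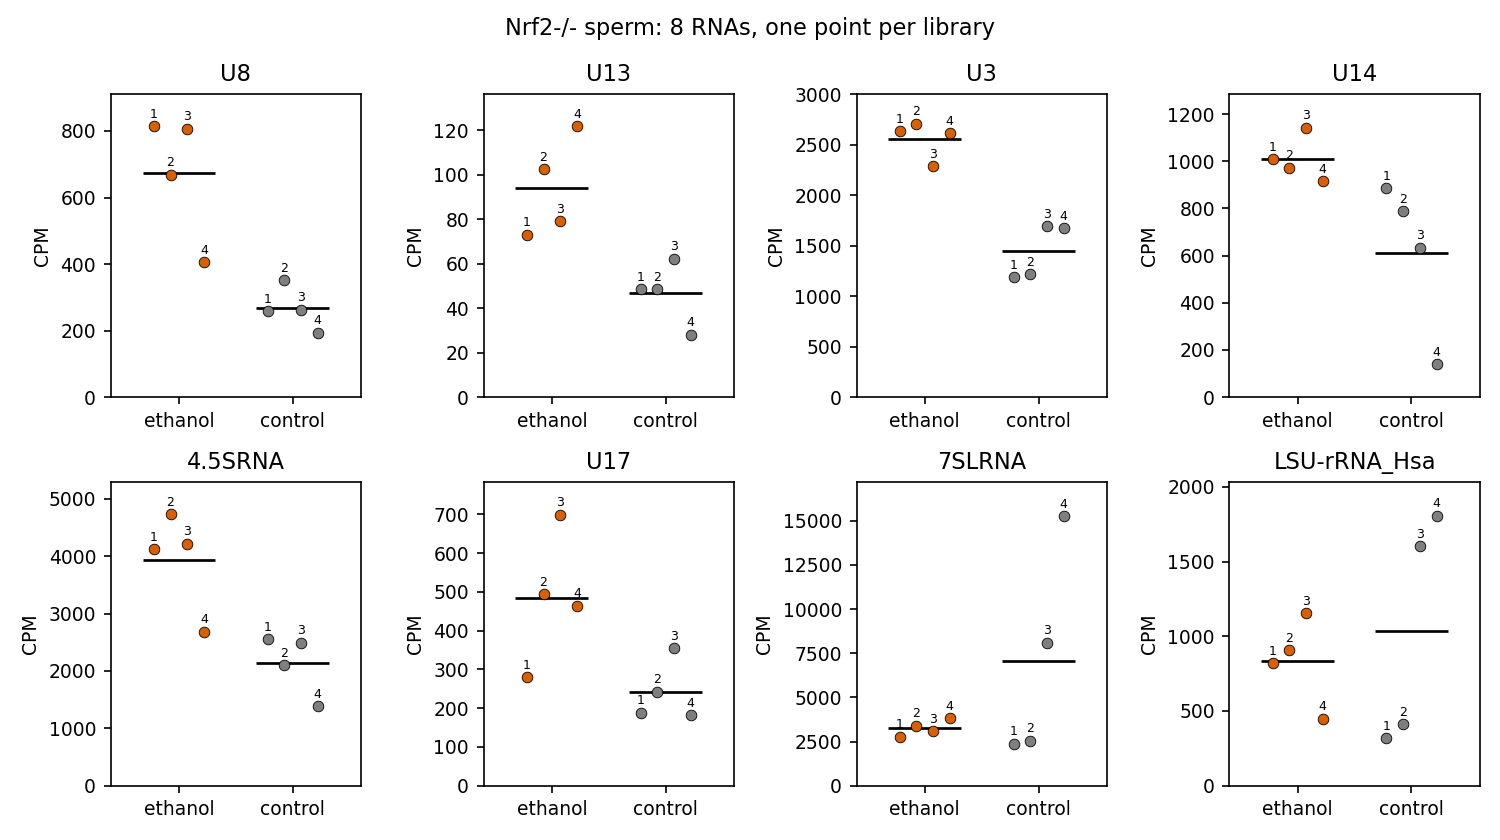
Levels of U8, U13, U3, U14, 4.5SRNA, U17, 7SLRNA and LSU-rRNA_Hsa in CPM in Nrf2-/- ethanol libraries (left) and Nrf2-/- control libraries (right), each library as a numbered point and the group mean as a bar. Ethanol libraries lie above all controls for the first 5 names, and controls 3 and 4 lie far above controls 1 and 2 for 7SLRNA and LSU-rRNA_Hsa.

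4.5SRNA had 4129, 4735, 4219 and 2686 CPM in ethanol libraries, against 2556, 2106, 2496 and 1385 CPM in controls. Its groups did not overlap, and the log2 change was 0.88 (SE 0.44, 95% interval -0.07 to 1.84). BC1_Mm had 464, 364.5, 410.5 and 92.8 CPM in ethanol libraries, against 181, 157, 185 and 225 CPM in controls, with 3 ethanol libraries above and 1 below all controls. 7SLRNA went the other way, with 2769, 3395, 3088 and 3828 CPM in ethanol libraries against 2380, 2541, 8090 and 15280 CPM in controls. Controls 3 and 4 were the high ones, and the log2 change was -1.11 (SE 0.61, 95% interval -2.45 to 0.22). Without control 4 alone it was -0.42, and without controls 3 and 4 together it was 0.61.

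The spliceosomal RNAs and LSU-rRNA_Hsa had ethanol libraries between the controls. U1 had 2596, 3398, 2639 and 2396 CPM in ethanol libraries, against 1994, 2078, 4586 and 5119 CPM in controls. U2 had 1764, 2284, 2154 and 1446 CPM with ethanol, against 1021, 1104, 3405 and 2593 CPM in controls. U4 had 569.9, 641, 859 and 442 CPM with ethanol, against 313, 358.5, 1496 and 1121 CPM in controls. In each, controls 1 and 2 lay below every ethanol library and controls 3 and 4 above. The same held for U5, with 922, 1045, 938 and 978 CPM in ethanol libraries against 423.5, 445, 1519 and 1072 CPM in controls. It also held for U6, with 459, 502, 456.5 and 488 CPM in ethanol libraries against 233, 259.8, 625.5 and 858 CPM in controls. LSU-rRNA_Hsa repeated the pattern, with 818, 905, 1157 and 448 CPM in ethanol libraries against 320.2, 413, 1603 and 1808 CPM in controls. U7 did not, with 14.2, 19.6, 18.3 and 31.2 CPM in ethanol libraries against 20.6, 23.9, 12.8 and 8.22 CPM in controls. SSU-rRNA_Hsa stayed between 2.19 and 6.92 CPM, and 5S, at 0.980 to 14.4 CPM, did not pass the filter on low counts.

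The Nrf2-/- controls fell into pairs, controls 1 and 2 apart from controls 3 and 4, for the spliceosomal RNAs, LSU-rRNA_Hsa, 7SLRNA, U3, U7, U14 and BC1_Mm. For U8, U13, U17, 4.5SRNA and SSU-rRNA_Hsa the ranges of the pairs overlapped. Deviations from the group mean over all features correlated at r = 0.875 between controls 1 and 2 and 0.615 between controls 3 and 4, and at -0.827 to -0.906 across the pairs, as a description over features that share libraries. Epididymis epithelium markers, 14 of 16 detected with Defb41 and Crisp4 at 0, summed to 192 to 447 exon CPM of all counts in ethanol libraries, against 1609 and 1333 in controls 1 and 2 and 59.4 and 48.9 in controls 3 and 4. Sperm markers summed to 278 to 361 exon CPM in ethanol libraries, against 221 and 265 in controls 1 and 2 and 914 and 1130 in controls 3 and 4. Smooth muscle and fibroblast markers summed to 57.8 to 134 exon CPM in ethanol libraries, against 42.3 to 89.2 in controls. All 9 tested were higher with ethanol, with a median log2 change of 0.78 against -0.27 over all features. The 3 leukocyte and 4 red blood cell markers tested were also all higher, and the 17 sperm markers tested all lower, with 0 called. The part of these marker lists in the values of these RNAs was not tested.

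Leaving out either pair of controls, an alternative added after the data were seen, gave different sets of calls. Without controls 3 and 4, 8 of the 16 names were called by edgeR's quasi-likelihood test with Benjamini-Hochberg adjustment, all higher with ethanol and with adjusted p from 0.0138 to 0.0392: U3 (log2 change 1.29), U8 (1.35), U13 (1.16), U17 (1.38), U4 (1.11), U5 (1.36), U6 (1.15) and LSU-rRNA_Hsa (1.39). In that fit 41.7% of 13168 features were called, 21% in the higher direction. All 16 names were higher with ethanol there, with a median log2 change of 1.13 against 0.15 over all features. Without controls 1 and 2, 3 names were called, U8 (1.68) and U14 (1.52) higher and 7SLRNA (-1.73) lower, where 22.4% of 10770 features were called. Of the 16 names, 9 were higher in both fits, the nucleolar RNAs among them. Another 7 were higher without controls 3 and 4 but lower without controls 1 and 2. These were U1, U2, U4, U5, U6, LSU-rRNA_Hsa and 7SLRNA. The fits share the 4 ethanol libraries, so their calls are not independent of each other.

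Set against the response to alcohol in WT sperm, the response in Nrf2-/- sperm was not called as different for any name. The interaction contrast, the change with ethanol in Nrf2-/- less the mean change over the 3 doses in WT, called 0 of 17 names and 0 of 20788 features (0%), and DESeq2 called 0 names and 4 features (0.0192%). The interaction was positive for 14 names and negative for 3, with a median of 0.74 against -0.13 over all features, but 9 and 8 with the total of all counts as library size, which moved the median of all features by -0.52. At an unadjusted p under 0.05 there were 5 names, against 4.19% of all features: U8 at 1.74 (SE 0.52, 95% interval 0.66 to 2.82), U3 at 1.07 (SE 0.43), U7 at 1.58 (SE 0.53), U17 at 2.41 (SE 0.75) and 5S at -2.51 (SE 0.98). The adjusted p was 0.985 for all 5 by edgeR's quasi-likelihood test. The U17 value was 0.88 without WT control 1. With the total of all counts as library size U8 was at 1.305, U3 at 0.56 and U7 at 0.92. Their unadjusted p was then 0.0567, 0.209 and 0.188 by edgeR's quasi-likelihood test, while U17 and 5S stayed under 0.05. The U7 change with ethanol in Nrf2-/- was 0.34, and its WT change came mostly from the medium-dose libraries with 4 and 2 counts. 5S rests on few reads: Nrf2-/- libraries held 4 to 5 counts with ethanol and 4 to 42 in controls, too few to be tested there alone. Both responses are confounded with their tables, and the doses of the 2 genotypes cannot be matched from the labels.

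Between Nrf2 liver KO and Nrf2 flox sperm, U8 and U7 were lower and 7SLRNA and LSU-rRNA_Hsa higher in liver KO libraries, without passing the adjusted test. Of the 15 tested names 0 were called, against 5 of 9836 features (0.0508%), and DESeq2 called 0 names and 39 features (0.397%). Unadjusted p was under 0.05 for 4 names, against 12.4% of all features. No name had groups that did not overlap, while 2.85% of all features were higher and 3.87% lower without overlap. The 15 names split into 8 higher and 7 lower, but 2 and 13 with the total of all counts as library size, which moved the median of all features by -0.29.

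U8 had 44.7, 84.9, 148 and 79.8 CPM in liver KO libraries, against 234, 75.2, 212 and 167 CPM in flox libraries. All 4 liver KO libraries lay below flox libraries 1, 3 and 4, and flox library 2 lay among them. The log2 change was -0.94 (SE 0.31, 95% interval -1.58 to -0.29, unadjusted p = 0.00597, adjusted p = 0.227 by edgeR's quasi-likelihood test). Without liver KO library 3 it was -1.28 and passed the threshold (adjusted p = 0.0320 by edgeR's quasi-likelihood test), in a fit that called 209 of 10756 features (1.94%). With the total of all counts as library size it was -1.18.

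U7 had 9, 8, 28 and 13 counts in liver KO libraries, against 46, 27, 41 and 32 in flox libraries. In CPM these were 4.57, 3.13, 9.51 and 4.43 in liver KO libraries and 18.4, 7.52, 11.1 and 10.2 in flox libraries. The values overlapped through liver KO library 3, and the log2 change was -1.09 (SE 0.40, 95% interval -1.90 to -0.27, unadjusted p = 0.0109, adjusted p = 0.272 by edgeR's quasi-likelihood test).

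7SLRNA had 6531, 4696, 3971 and 5299 CPM in liver KO libraries, against 3041, 4799, 2951 and 3618 CPM in flox libraries. The log2 change was 0.51 (SE 0.22, 95% interval 0.05 to 0.97, unadjusted p = 0.0311), and 0.18 with the total of all counts as library size. LSU-rRNA_Hsa had 704, 572, 474 and 647 CPM in liver KO libraries, against 513, 496, 263 and 423 CPM in flox libraries. Liver KO libraries were higher but for library 3, and the log2 change was 0.50 (SE 0.23, 95% interval 0.03 to 0.97, unadjusted p = 0.0384). It was 0.31 without flox library 3 and 0.16 with the total of all counts as library size.

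**Figure D4:**
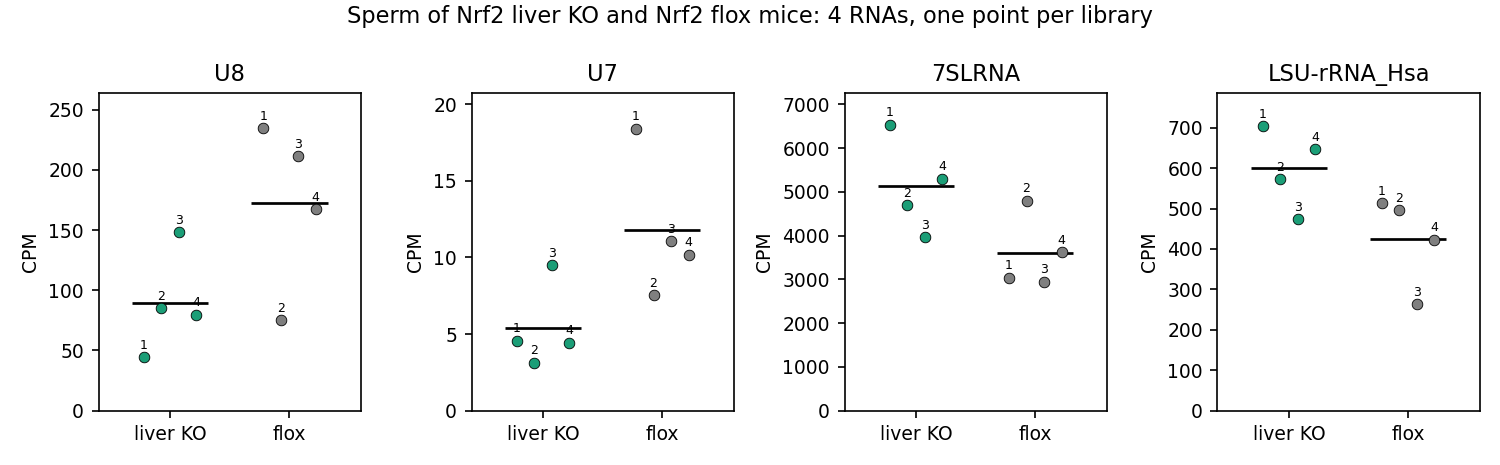
Levels of U8, U7, 7SLRNA and LSU-rRNA_Hsa in CPM in Nrf2 liver KO libraries (left) and Nrf2 flox libraries (right), each library as a numbered point and the group mean as a bar. Groups overlap in all 4 panels, through liver KO library 3 or flox library 2.

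The remaining nucleolar RNAs overlapped broadly. U14 had 164.5, 295.5, 447 and 258 CPM in liver KO libraries, against 604, 210.4, 425 and 502 CPM in flox libraries, with a log2 change of -0.58 (SE 0.29, 95% interval -1.16 to 0.01). U17 had 197, 163, 304 and 258 CPM in liver KO libraries, against 413, 175, 235 and 338.5 CPM in flox libraries. U3 had 673, 897, 889 and 537 CPM in liver KO libraries, against 970.2, 525, 832 and 923 CPM in flox libraries. Flox libraries 1 and 2 were at opposite ends for all 3, as they were for U8. U13 had 17.8, 63.0, 46.2 and 21.8 CPM in liver KO libraries, against 74.4, 10.3, 29.1 and 20.7 CPM in flox libraries. Its log2 interval, -0.68 to 1.02, left its direction undetermined.

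The spliceosomal RNAs were even across these groups in CPM. U1 had 2078, 2350, 2019 and 1956 CPM in liver KO libraries, against 1900, 2506, 1868 and 2071 CPM in flox libraries, with a log2 interval of -0.41 to 0.43. U2 had 1799, 1545, 1691 and 1943 CPM in liver KO libraries, against 1552, 1745, 1480 and 1622 CPM in flox libraries. U5 had 681, 733, 802 and 739.6 CPM in liver KO libraries, against 819.9, 671, 630.5 and 766 CPM in flox libraries. Intervals were -0.29 to 0.53 for U2 and -0.38 to 0.45 for U5. U4 had 667, 579, 592.5 and 873 CPM in liver KO libraries, against 639.5, 843, 595 and 884 CPM in flox libraries. U6 had 78.2, 129, 102 and 141.5 CPM in liver KO libraries, against 101, 90.2, 80.2 and 115 CPM in flox libraries. For both the groups overlapped over most of their range. With the total of all counts as library size each spliceosomal RNA was lower in liver KO, where the median of all features was -0.28. The log2 changes were -0.28 for U1, -0.18 for U2, -0.44 for U4, -0.26 for U5 and -0.07 for U6. The unadjusted p of U4 was 0.0258 on that scale by edgeR's quasi-likelihood test.

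4.5SRNA varied widely within both groups, with 1373, 2888, 3285 and 1652 CPM in liver KO libraries against 5280, 1573, 2511 and 2979 CPM in flox libraries. BC1_Mm had 197, 179.7, 201 and 178 CPM in liver KO libraries, against 191, 169, 130.4 and 174 CPM in flox libraries. 5S had 0, 7, 0 and 40 counts in liver KO libraries and 0, 0, 41 and 0 in flox libraries, and SSU-rRNA_Hsa lay between 0.341 and 2.40 CPM, so neither was tested. Epididymis markers, 14 of 16 detected with Lcn6 and Defb41 at 0, summed to 172 to 524 exon CPM of all counts in liver KO libraries against 645 to 819 in flox libraries. Smooth muscle and fibroblast markers, 9 of 9 detected, summed to 106 to 176 against 167 to 361. Liver KO library 3, where U8 and U7 were high, had the highest sum of its group for both marker lists, and their part in these results was not tested.

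**Figure D5:**
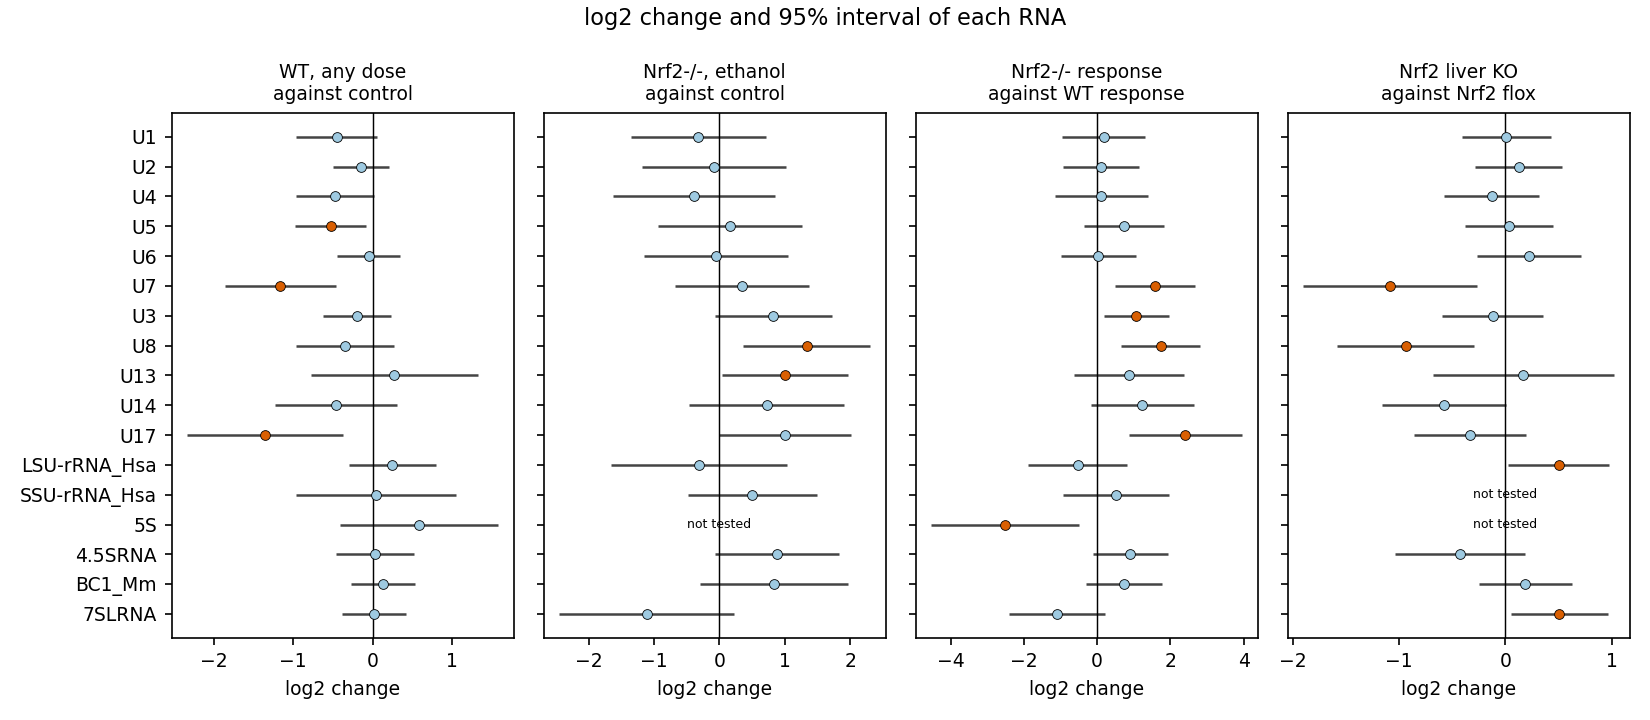
Log2 change of each tested name with its 95% interval in WT at any dose against control, Nrf2-/- ethanol against control, the difference between these responses, and Nrf2 liver KO against flox. Orange marks an unadjusted p under 0.05, with an adjusted p of at least 0.227 for every name in every panel. U7 and U8 are each marked in 3 of the 4 panels. The panel of the difference uses the same libraries as the WT and Nrf2-/- panels.

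U7 and U8 each had an unadjusted p under 0.05 in 3 of these 4 comparisons. In the order of the panels, 4.24%, 4.83%, 4.19% and 12.4% of all features had such a p. The log2 change of U8 was 1.33 with ethanol in Nrf2-/- (SE 0.45) and -0.94 in liver KO (SE 0.31), and that of U7 was -1.16 over all doses in WT (SE 0.34) and -1.09 in liver KO (SE 0.40). The third for both was the interaction, which is computed from the same WT and Nrf2-/- libraries and is not a separate occurrence. The U7 change in WT came mostly from the medium dose, where its counts were very low. Both names were picked out after their values were seen.

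Genes that encode related RNAs or their protein partners were read from the exon class of the same tables, in 3 lists chosen with earlier results known. Of 35 genes for these RNAs, 7 could be tested in WT, 8 in Nrf2-/- and 6 in the liver KO table, and 0 were called in any comparison by edgeR's quasi-likelihood test. Most of the rest had no exon counts, Rnu1b1, Rnu7 and Rn45s among them. Rn7sk, the 7SK RNA that restrains transcription elongation, had 634, 720.2, 642 and 963 CPM in Nrf2-/- ethanol libraries, against 822, 679.7, 709 and 647 CPM in controls. Rnu12, the U12 RNA of the minor spliceosome, had 677, 1019, 944.5 and 497 CPM in ethanol libraries, against 363, 374, 3441 and 1667 CPM in controls, which repeats the split of the controls seen for U1 and U2. In WT libraries Rn7sk had 322.5 to 382 CPM in controls and 211.8 to 286 CPM at the low dose. It had 244.6 and 202.5 CPM at the medium dose, and 560.1 and 221 CPM at the high dose. Low- and medium-dose libraries lay below every control, as did 1.94% and 6.84% of all features, and Rn7sk was not called. Rnu12 lay between 159.8 and 361 CPM in WT libraries. Of the 7 genes tested in WT, 1 was higher and 6 were lower at each dose. In the liver KO table Rn7sk lay between 563.6 and 832 CPM in liver KO and between 809 and 1505 CPM in flox libraries, and Rnu12 between 442 and 585 CPM in liver KO and between 438 and 498.5 CPM in flox libraries. Rnu73b had 41.8 to 57.6 CPM in WT controls and 17.6 to 40.4 CPM at the low dose. It had 33.2 and 40.75 CPM at the medium dose, also below every control, and 63.55 and 26.9 CPM at the high dose. In Nrf2-/- sperm its groups overlapped, with 657.5 to 1085 CPM with ethanol and 495 to 683.5 CPM in controls.

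Of 45 genes for ribosomal RNA synthesis and processing, 27, 12 and 13 were tested in the WT, Nrf2-/- and liver KO tables, and 0 were called. With ethanol in Nrf2-/- sperm 2 were higher and 10 lower, with a median log2 change of -0.31 against -0.27 over all features, close to that of features in general. Ncl, nucleolin, had 18.3, 14.5, 14.3 and 13.4 CPM in ethanol libraries, against 47.5, 49.7, 10.5 and 5.82 CPM in controls. Gtf3c1, a subunit of the factor that recruits RNA polymerase III, had 6.50, 7.74, 7.41 and 9.58 CPM in ethanol libraries, against 15.9, 18.03, 5.50 and 1.71 CPM in controls. Both were high in controls 1 and 2 and low in controls 3 and 4, the reverse of the spliceosomal RNAs. In the liver KO table Ncl had 2.35 to 18.3 CPM in liver KO and 9.46 to 23.8 CPM in flox libraries. Gtf3c1 had 5.48 to 7.47 CPM in liver KO and 9.45 to 13.4 CPM in flox libraries. It was lower without overlap, as were 3.87% of all features, and was not called. In WT libraries Ncl lay between 3.04 and 14.3 CPM and Ddx21, a nucleolar helicase, between 1.75 and 5.85 CPM.

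Of 51 genes for spliceosomal and other small ribonucleoprotein proteins, 35, 24 and 20 were tested and 0 were called. With ethanol in Nrf2-/- sperm 2 were higher and 22 lower, with a median log2 change of -0.55 against -0.27 over all features. At the low, medium and high doses in WT, 9, 10 and 24 were higher and 26, 25 and 11 lower. At the high dose the list summed to 198 exon CPM of all counts in library 1 and 75.8 in library 2, against 41.7 to 144 in controls. High-dose library 1 also had epididymis markers at 2015 exon CPM, against 107 to 656 in the other WT libraries, and their part in this was not tested. Prpf8, the core protein of the U5 particle, had 19.1, 16, 15.8 and 17.5 CPM in Nrf2-/- ethanol libraries, against 43.1, 47.0, 11.9 and 7.54 CPM in controls. Sf3b1, which binds the branch site with U2, had 17.9, 10.8, 10.9 and 15.9 CPM in ethanol libraries, against 24, 26, 9.17 and 8.22 CPM in controls. In the liver KO table Prpf8 had 8.63 to 24.5 CPM in liver KO and 16.5 to 26.8 CPM in flox libraries, and Snrnp200, the helicase of the U5 particle, had 5.87 to 24.4 CPM in liver KO and 12 to 20.2 CPM in flox libraries. In WT libraries Prpf8 lay between 2.68 and 25.3 CPM and Sf3b1 between 5.13 and 11.9 CPM.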

How the data were processed

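Small RNA of mouse sperm was measured in 28 libraries. The authors deposited raw read counts per annotated feature in 3 tables, whole numbers whose totals differ between libraries, which is the unit used throughout. The aligner, counting tool, genome build and treatment of reads with several positions are not given in the sources used here. Groups and replicate numbers follow the labels. The members and gene lists were chosen with earlier results of these data known.

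Counts were summed per feature class and name. All features other than miRNAs were tested in R 4.3.3 with edgeR 4.0.16 (filterByExpr, TMM scaling, quasi-likelihood F test, two-sided, Benjamini-Hochberg adjustment at 0.05). One fit held all 12 WT libraries, so groups of 2 share their spread, the other tables had a fit of 8 libraries each, and the interaction used 20 libraries. The 95% intervals use the test's degrees of freedom. CPM use the TMM-scaled totals, and summed marker CPM use all counts. Names with a mean of at least 10 CPM in a table were given in every library, U7 was added after its values were seen, and of the gene lists the 2 genes with the highest mean were named per table. Rnu73b was also added after its values were seen. 

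Alternatives were DESeq2 1.42.0, library size taken as the sum over every class, no filter, miRNAs tested with the other features, tRNA left out, only the groups compared, a replicate block, a threshold of 0.1 and each library left out in turn. The pairs of Nrf2-/- controls were left out together after the data were seen. The pipeline was tested on simulated data. Depth ran from 1993933 to 11119711 counts per library, and precision is limited by the number of libraries and, for U7, U13, 5S and SSU-rRNA_Hsa, by few reads. No replicates agreed within sampling noise. Sequences were read from GENCODE vM21 (GRCm38). Shares and figures were made in Python 3.11.15 (pandas 2.3.3, numpy 2.4.6, matplotlib 3.10.9, scipy 1.17.1).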

Additional observations from a re-analysis of the deposited data

Results flagged for a closer look

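In groups of 4, 110 values of these RNAs were compared with the other libraries of their group for a single library far from the rest, by Dixon's criterion at 95%. There were 5 such values, where chance gives about 1 in 20, or 5.5. 5S had 55.6 CPM in WT low-dose library 2, against 8.18 to 10.1 CPM in the other low-dose libraries. U17 had 333 CPM in WT control 1, against 34.1 to 45.5 CPM in the other controls. U8 had 95.7 CPM in WT low-dose library 1, against 51.7 to 57.5 CPM in the other low-dose libraries. The 3 ribosomal names together took 0.0644% of all counts in WT low-dose library 4, against 0.0501% to 0.0512% in the others. The small nuclear and nucleolar RNAs together took 0.815% of all counts in Nrf2-/- control 3, against 0.555% to 0.588% in the other Nrf2-/- controls. The number found is no larger than chance gives, and the causes were not tested.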

How the results depend on the processing

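In all 7 comparisons 0 names were called with DESeq2, library size taken as the sum over every class, miRNAs tested together with other features, tRNA left out, or a threshold of 0.1, and likewise for each single dose in WT when only the groups compared were fitted. Replicate numbers did not pair the libraries (correlation of deviations -0.0765 to 0.171 for the low dose, -0.491 to 0.416 for Nrf2-/- and -0.0743 to 0.184 for liver KO), and with a replicate block 0 names were called in each comparison. Without the filter on low counts, 2 names were called at the low dose, 5S (log2 change 1.41) and U17 (-1.51), where 0.342% of 45379 features were called, 1 at the medium dose, U7 (-2.76), and 1 over all doses, U17 (-1.30), where 0.119% were called in each. Without Nrf2-/- controls 3 and 4 there were 8 calls and without controls 1 and 2 there were 3. Leaving out 1 library gave 0 to 1 calls for liver KO, the call being U8, and 0 in the other comparisons. The U17 change over all doses reversed to 0.18 without WT control 1, in a range of -1.66 to 0.18. Over all features the calls moved more: 11 at the low dose became 0 with the total as library size, 21 with DESeq2, 155 without the filter, 42 with the replicate block and 0 to 8 with a library left out, and 5 for liver KO became 13, 39, 75, 25 and 0 to 209. Causes were not tested. Among the values of names with an unadjusted p under 0.05, 353 kept their direction and side of the threshold, 8 passed it and 1 reversed. Over all 116 log2 changes of tested names, 24 changed sign with the total as library size and 44 with some library left out. Few reads limit U7, U13, 5S and SSU-rRNA_Hsa, and groups of 2 limit the medium and high doses.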
